A study of Mus musculus with 38 samples.

Results

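The lowest dose of the botanical formulation Kal-1 was compared with the low fat control in brown adipose tissue of C57BL/6J mice. Each side had 6 arrays, at Weeks 3, 6, 9, 12, 15 and 18, so the comparison rests on 12 of the 38 arrays of the series. All mice were weaned at 3 to 4 weeks of age. The LFC mice ate a diet with 10% of its calories from fat. The HF5 mice ate a diet with 60% of its calories from fat and increased sucrose, together with 5 µg of Kal-1, and the HFC mice ate the same high fat diet without Kal-1. The HF5 and HFC mice therefore share the diet, and HF5 against LFC holds the diet and the formulation together. The labels state that 5 animals of each group were sacrificed every 3 weeks, but not whether an array held the RNA of 1 animal or of a pool. Each group has 1 array per week, so the 6 weeks serve as the replicates. A p-value sets the mean difference against its spread between weeks, which also holds differences between animals and between arrays. The question addressed was what remained different from the low fat control in mice given the lowest dose with the high fat diet.

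Brown adipose tissue burns fatty acids and glucose to make heat, and uncoupling protein 1 (Ucp1) lets the mitochondria release that energy. The tissue also makes fatty acids from sugar. Acly turns citrate into acetyl-CoA, Acaca and Fasn build palmitate from it, Me1 supplies reducing power, Elovl6 lengthens the chain and Scd1 adds a double bond. The sterol regulatory factors SREBP-1 and SREBP-2 drive these genes and those of cholesterol synthesis, and dietary fat and sterols are known to lower them in liver and fat. In bulk tissue fewer cells of a type and less RNA per cell cannot be told apart.

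All levels are log2 of the processed signal minus the 75th percentile of the same array, so 0 is the level of that percentile, and a difference of 1 is a 2-fold change. The arrays differed in brightness, as shown in the plot of brightness by week. The 75th percentile of the signal was 655, 1023 and 830 intensity units on the LFC arrays of Weeks 3, 9 and 12 and 178, 197 and 148 on those of Weeks 6, 15 and 18. It was between 35.8 and 173 on all 6 HF5 arrays, of which Week 18 was the dimmest with 36.6% of spots well above background. An array over 600 was called bright, a value set with the brightness of the arrays known, so both arrays were dim at Weeks 6, 15 and 18 and only the LFC array was bright at Weeks 3, 9 and 12. Bright LFC arrays had 570 to 985 saturated spots and dim ones 20 to 39. The main results are therefore also given within these 2 sets of weeks.

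**Figure D1:**
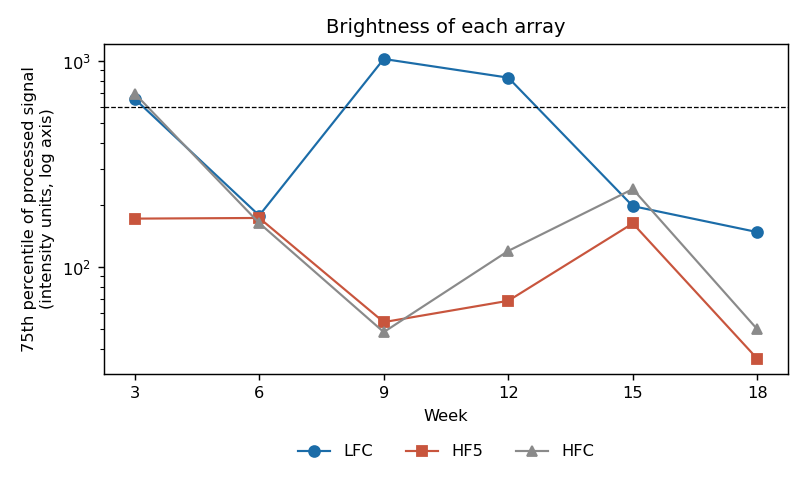
The 75th percentile of the processed signal (intensity units, log axis) of each LFC, HF5 and HFC array against the week, with 1 array per point and the boundary of 600 as a dashed line. The LFC arrays of Weeks 3, 9 and 12 and the HFC array of Week 3 lie above it, and no HF5 array does.

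Of 20348 genes tested, 0 passed an adjusted p of 0.05 in HF5 against LFC (limma, paired by week, Benjamini-Hochberg). The lowest adjusted p of any gene was 0.522. An unadjusted p under 0.05 was reached by 1863 genes, of which 1418 (6.97% of the genes tested) were higher and 445 (2.19%) were lower in HF5. None of the values below passed the adjusted threshold over the 6 weeks. Within the weeks with a bright LFC array 6165 genes (30.3%) passed, 3645 higher and 2520 lower, and within the weeks with both arrays dim 0 passed (1124 at an unadjusted p under 0.05). The difference between the 2 sets of weeks itself passed for 5077 genes. Per week, 10460, 9014 and 11587 genes differed by 2-fold or more at Weeks 3, 9 and 12, against 4149, 2167 and 7705 at Weeks 6, 15 and 18. The part of brightness in these counts was not tested apart from the weeks, since no HF5 array was bright.

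Stearoyl-CoA desaturase 1 (Scd1, chromosome 19), which makes oleate and palmitoleate, was lower in HF5 at 6 of 6 weeks. Its level in LFC was 6.58, 4.90, 6.00, 6.30, 5.55 and 5.62 at Weeks 3, 6, 9, 12, 15 and 18. In HF5 it was 2.69, 3.77, 4.53, 3.60, 3.93 and 3.99. Every HF5 array lay below every LFC array, which held for 12 of the genes tested in this direction (0.059%). The mean was 5.82 ± 0.60 in LFC and 3.75 ± 0.61 in HF5 (SD, n = 6 each), a difference of -2.07 (SE 0.41, a 4.2-fold lower level, limma adjusted p = 0.522). It was -1.46 over the weeks with both arrays dim and -2.69 over the others. The Scd1 probe was saturated on the 3 bright LFC arrays, so the levels there are lower limits.

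A second probe bears on the same enzyme. It carries the design name LOC677051, is described there as similar to a fatty acid desaturase, and lists the Scd1 transcript among its targets, so its signal cannot be assigned to 1 of them. Its sequence is shown because it gives a reading of this enzyme that was not saturated on any array.
LOC677051 probe: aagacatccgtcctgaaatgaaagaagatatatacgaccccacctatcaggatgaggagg
The LFC levels of this probe were 3.13, -1.83, 2.51, 2.60, -0.92 and 0.02 in week order. Those in HF5 were -3.62, -2.83, -2.25, -3.22, -2.26 and -2.85. The groups did not overlap for this probe either. The difference was -3.76 (SE 0.80), with -1.74 over the weeks with both arrays dim and -5.78 over the others. Its difference between the sets of weeks passed (limma adjusted p = 0.0118), while that of the Scd1 probe did not (0.203).

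Over the fatty acid synthesis list, 19 of 21 genes were lower in HF5 and 7 were lower at an unadjusted p under 0.05, against 2.19% of all genes. The median difference was -1.58, beside 0.07 for all genes tested. This list was chosen with earlier results of these data known, so its count is a description. Elovl6, the elongase that turns palmitate into stearate, had LFC levels of 6.65, 1.47, 6.04, 6.14, 1.64 and 1.36 in week order and HF5 levels of 0.44, 0.84, 1.80, -0.38, 0.48 and 1.97. It was high on the 3 bright LFC arrays alone, and the groups overlapped. Its difference was -3.02 (SE 1.01) over all weeks and -0.39 over the weeks with both arrays dim, lower at 5 of 6 weeks. Malic enzyme Me1 differed by -2.18 (SE 0.70), with -0.57 over the dim weeks, and was saturated on the same 3 LFC arrays. ATP citrate lyase Acly differed by -1.95 (SE 0.58) and by -0.54 over the dim weeks. The second desaturase Scd2 differed by -1.79 (SE 0.58) and by -0.37. For Elovl6, Me1, Acly and Scd2 the difference between the sets of weeks passed. Over the list the median was -3.21 in the weeks with a bright LFC array and -0.28 in the others, where 12 of 21 genes were lower. At 3 of 3 dim weeks 3 of 21 genes were lower and 3 were higher, a share near the background of 13.3% of all genes lower and 16.5% higher. In those weeks the median of the list turned to 0.16 with normexp background correction, which put all genes at -0.23. With brightness as a covariate the median of the list over all weeks was -0.18, while Scd1 differed by -1.77 and Elovl6 by -0.80. That fit cannot tell brightness, group and week apart, since no HF5 array was bright.

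**Figure D2:**
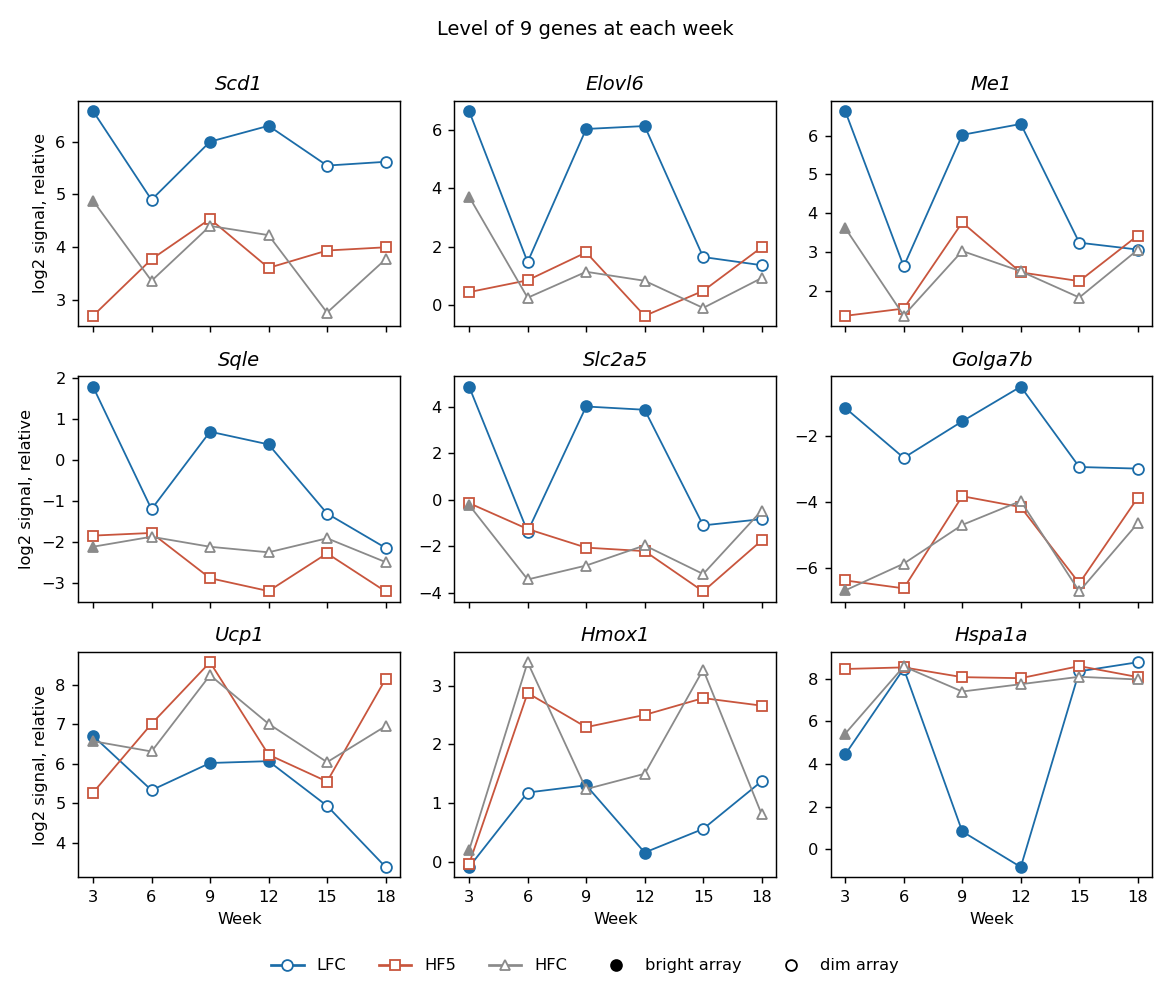
Level of 9 genes (log2 signal relative to the 75th percentile of the array) against the week in LFC, HF5 and HFC, 1 array per point, filled where the array was bright. For Scd1 and Golga7b all LFC points lie above all HF5 points; Elovl6, Me1, Sqle and Slc2a5 stand high on the bright LFC arrays, and Hspa1a stands low on them, down to -0.83.

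Among the genes of cholesterol synthesis and uptake 21 of 25 were lower in HF5, with a median of -0.99. At an unadjusted p under 0.05, 9 of them were lower, against 2.19% of all genes. Squalene epoxidase Sqle, an early oxygen-requiring step of the sterol pathway, had LFC levels of 1.78, -1.21, 0.68, 0.37, -1.31 and -2.15 in week order. In HF5 they were -1.85, -1.78, -2.89, -3.20, -2.28 and -3.21. Sqle was lower at 6 of 6 weeks, as for 278 genes in all (1.37%), although the groups overlapped. The difference was -2.23 (SE 0.53), with -0.87 over the weeks with both arrays dim and -3.59 over the others. Farnesyl diphosphate synthase Fdps differed by -1.88 (SE 0.60) and lanosterol demethylase Cyp51 by -1.66 (SE 0.47), each lower at 5 of 6 weeks. Cyp51 was well above background on 4 LFC and 2 HF5 arrays, and its other probes gave -1.35 and -0.52. In the dim weeks Fdps differed by -0.37 and the Cyp51 probe used by -0.59, while the other Cyp51 probes gave 0.17 and 0.22. Over all weeks Cyp51 differed by -0.54 with signals raised to the floor of their array and by -0.27 with normexp. Hmgcs1, which makes hydroxymethylglutaryl-CoA and was named for its promoter after its values were seen, differed by -0.27 (SE 0.46). In the dim weeks the median of this list was -0.03 and 14 of 25 genes were lower. At 3 of 3 dim weeks 3 of the 25 were lower and 3 were higher. These shares are near the background of 13.3% of all genes lower and 16.5% higher. With brightness as a covariate the median of the list over all weeks was -0.32 and Sqle differed by -0.77.

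The promoters of this pathway are shown because its members were described together above. The 250 bases before the first listed start of each gene (RefSeq, GRCm38.p6) were searched on both strands for a sterol regulatory element form (TCACNCCAC), the E-box CACGTG, the CCAAT box and the GC box GGGCGG. Promoters were found for 17 of the 25 cholesterol genes and 18 of the 21 fatty acid genes. Scd1 and Sqle were not among them, so the shares below do not cover these genes. The CCAAT box was in 15 of the 17 cholesterol promoters and the GC box in 16, against 34.5% and 32.9% of 27025 promoters. In the fatty acid promoters each was in 9 of 18. The sterol element form was in 1 promoter of each list, Hmgcs1 and Mlxipl, against 1.04% of all, and the E-box in 3 cholesterol and 2 fatty acid promoters, against 6.05%. Hmgcs1 (chr13:119690101-119690350, plus strand) holds 3 of the motifs, Cyp51 (chr5:4104698-4104947, minus strand) 2 and Acly (chr11:100528001-100528250, minus strand) 1. Capitals mark the matches, in either orientation.
Hmgcs1: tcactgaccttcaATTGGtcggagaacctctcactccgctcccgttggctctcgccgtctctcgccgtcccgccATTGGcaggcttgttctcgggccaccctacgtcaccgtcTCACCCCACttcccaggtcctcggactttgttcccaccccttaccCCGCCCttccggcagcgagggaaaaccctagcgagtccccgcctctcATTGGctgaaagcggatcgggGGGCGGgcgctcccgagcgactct
Cyp51: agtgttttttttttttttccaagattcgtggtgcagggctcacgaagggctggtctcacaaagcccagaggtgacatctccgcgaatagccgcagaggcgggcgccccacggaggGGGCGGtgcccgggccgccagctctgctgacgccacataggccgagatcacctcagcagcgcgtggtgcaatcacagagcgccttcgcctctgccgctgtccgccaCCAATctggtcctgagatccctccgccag
Acly: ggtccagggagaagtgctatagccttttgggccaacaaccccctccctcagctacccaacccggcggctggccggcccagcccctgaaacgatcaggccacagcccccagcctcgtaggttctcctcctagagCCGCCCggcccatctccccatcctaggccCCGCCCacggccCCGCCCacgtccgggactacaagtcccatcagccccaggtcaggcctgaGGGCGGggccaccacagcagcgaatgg
The promoter with all but the E-box, Hmgcs1, belongs to a gene that was lower at 3 of 6 weeks only. A match describes these letters and does not show that a factor binds there.

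The fructose transporter Slc2a5, named after its values were seen, had LFC levels of 4.87, -1.38, 4.01, 3.87, -1.11 and -0.84 in week order. In HF5 they were -0.15, -1.26, -2.07, -2.22, -3.95 and -1.75. The difference was -3.47 (SE 0.89), and HF5 was lower at 5 of 6 weeks. Over the weeks with both arrays dim the difference was -1.22, and the 2 sets of weeks differed (limma adjusted p = 0.0116).

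Several of the lower genes with the smallest p-values were well above background in LFC and not in HF5. They reached the 3 arrays well above background needed for testing through LFC alone, the group where they were high. Their values are therefore a description. Golga7b (chromosome 19), whose protein belongs to the Golgi-associated palmitoyltransferase cofactors, was measured on 6 of 6 LFC arrays and on 0 of 6 HF5 arrays. Its LFC levels were -1.14, -2.66, -1.55, -0.50, -2.93 and -2.98 and its HF5 levels -6.37, -6.61, -3.82, -4.15, -6.46 and -3.86 in week order, with no overlap. With the dimmest signal still called well above background on an HF5 array as the limit of detection, Golga7b was at least 2.9-fold lower in HF5. The measured difference was -3.25 (SE 0.53), with -2.78 in the dim weeks and -3.71 in the others. The probe 4933417O08Rik, whose accession now carries the symbol Golga7b, gave -2.34 (SE 0.51) and at least 1.7-fold. This probe too was well above background on LFC arrays alone, 5 of them. With normexp, which adds an offset and shrinks dim signals, Golga7b differed by -0.70 and 4933417O08Rik by -0.24. Each is a smaller size than its lower limit above.

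Of the 10 lower genes named by rule, 4 have predicted transcripts of no known role. 1700018G05Rik differed by -4.02 (SE 0.70) and was at least 4.5-fold lower, Gm9112 by -3.56 (SE 0.54) and at least 3.6-fold, and 1700011M02Rik by -2.93 (SE 0.59) and at least 2.0-fold. These 3 also entered the test through LFC alone. Gm3880 differed by -3.26 (SE 0.63). With normexp they differed by -0.99, -0.73, -0.42 and -0.59 in this order, for the first 3 a smaller size than the lower limits above. All of these 4 were lower at 6 of 6 weeks, and over the dim weeks they ran from -2.86 to -2.12. The probes of Gm9112 and 1700011M02Rik differ at 2 of 60 bases, G42C and T55A (positions from the 5′ end of the probe, the Gm9112 base first), so these transcripts cannot be told apart here.
Gm9112 probe: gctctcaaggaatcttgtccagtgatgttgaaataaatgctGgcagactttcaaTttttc
1700011M02Rik probe: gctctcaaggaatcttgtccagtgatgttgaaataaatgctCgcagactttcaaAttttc
Capitals mark the bases that differ.

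The immunoglobulin joining chain Igj (now Jchain), a product of antibody-secreting cells, differed by -1.64 (SE 0.38) and was lower at 5 of 6 weeks, with -1.09 in the dim weeks and -2.19 in the others. Among the lymphocyte markers, the T-cell receptor component Cd3g differed by 0.07 (SE 0.35). Of the 16 markers tested 1 was higher at an unadjusted p under 0.05 and 0 were lower. In HFC against LFC 7 of the 16 were higher at that level (6.71% of all genes), and in HF5 against HFC 3 were lower (3.18%). None of the 16 was well above background on all 12 arrays. The mean level of the list ran from -3.96 to -2.74 on the LFC arrays and from -3.80 to -1.92 on the HF5 arrays.

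Genes that were higher in HF5 with the smallest p-values were dim. Gm10499 was well above background on 0 LFC and 3 HF5 arrays and differed by 3.12 (SE 0.46), at least 3.4-fold. It thus entered the test through HF5 alone, the group where it was higher. The chemokine receptor Cxcr5 of B cells differed by 1.95 (SE 0.39) and Ccdc88c by 2.27 (SE 0.44). The carnitine synthesis enzyme Bbox1 differed by 1.30 (SE 0.26) but was not well above background on any HF5 array. With normexp Gm10499, Cxcr5, Ccdc88c and Bbox1 differed by 0.67, 0.65, 0.55 and 0.46, for Gm10499 a smaller size than the lower limit above. By the probe used, each of these 4 was higher at 6 of 6 weeks, as were 475 genes (2.33%). The other Gm10499 probes gave 1.90 and 2.16 but were lower in HF5 at 1 week each. In the dim weeks they gave 0.67 and 0.66, against 2.54 for the probe used. Ccdc88c was well above background on 3 of the 12 arrays. Brighter genes were also higher. Heme oxygenase 1 (Hmox1), an antioxidant enzyme that breaks down heme, had LFC levels of -0.09, 1.18, 1.30, 0.16, 0.56 and 1.37 and HF5 levels of -0.04, 2.88, 2.30, 2.5, 2.79 and 2.66 in week order. The HF5 array of Week 3 was as low as LFC and the other 5 HF5 arrays lay above every LFC array. The difference was 1.43 (SE 0.36), with 1.74 in the dim weeks and 1.13 in the others. The xenobiotic cytochrome Cyp2b10 was well above background on 1 LFC and 3 HF5 arrays, so its size is uncertain. It differed by 2.53 (SE 0.60), by 1.75 with signals raised to the floor of their array and by 0.42 with normexp, and its other probe gave 1.26. In the dim weeks the probes gave 3.52 and 2.47, and in the others 1.55 and 0.05.

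Genes of heat production and of the mitochondria behaved differently in the 2 sets of weeks. Ucp1 was well above background on all 12 arrays. Its LFC levels were 6.70, 5.33, 6.02, 6.06, 4.93 and 3.38 and its HF5 levels 5.27, 7.01, 8.57, 6.23, 5.55 and 8.14 in week order. The LFC probe was saturated on 2 of the bright arrays. The difference was 1.39 (SE 0.73) over all weeks, 2.35 over the weeks with both arrays dim and 0.43 over the others. HF5 was the higher group at 5 of 6 weeks, and Week 3 alone went the other way.

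In the weeks with both arrays dim, 24 of 24 genes of the respiratory chain and ATP synthase were higher in HF5 at 3 of 3 weeks, against 16.5% of all genes. So were 15 of 19 genes of fatty acid oxidation, 11 of 13 of the tricarboxylic acid cycle and 13 of 16 brown thermogenic effectors. Their median differences in those weeks were 1.12, 1.65, 1.09 and 1.93, beside 0.04 for all genes. Under quantile normalization the counts were 24, 15, 11 and 13, and with normexp they were 24, 15, 10 and 7, where the median of the thermogenic effectors was 0.44. The medians were largest at Week 18, at 2.04 for the respiratory chain and 2.71 for the thermogenic effectors, where the HF5 array was dimmest. At Week 15 they were 0.36 and 0.70. Skeletal muscle markers had median differences of 0.51, -0.95 and 2.40 at Weeks 6, 15 and 18, and their part in these values was not tested. In the weeks with a bright LFC array 21 of 24 respiratory chain genes were lower instead, with a median of -0.97 (-2.13 at Week 3, 0.34 at Week 9 and -1.18 at Week 12), and 20 of the 24 were saturated on at least 1 of those LFC arrays. No member of these lists was saturated on a dim LFC array. Over all 6 weeks 1 of 24 respiratory chain genes and 2 of 16 thermogenic effectors were higher at an unadjusted p under 0.05 and 0 were lower, against 6.97% and 2.19% of all genes.

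**Figure D3:**
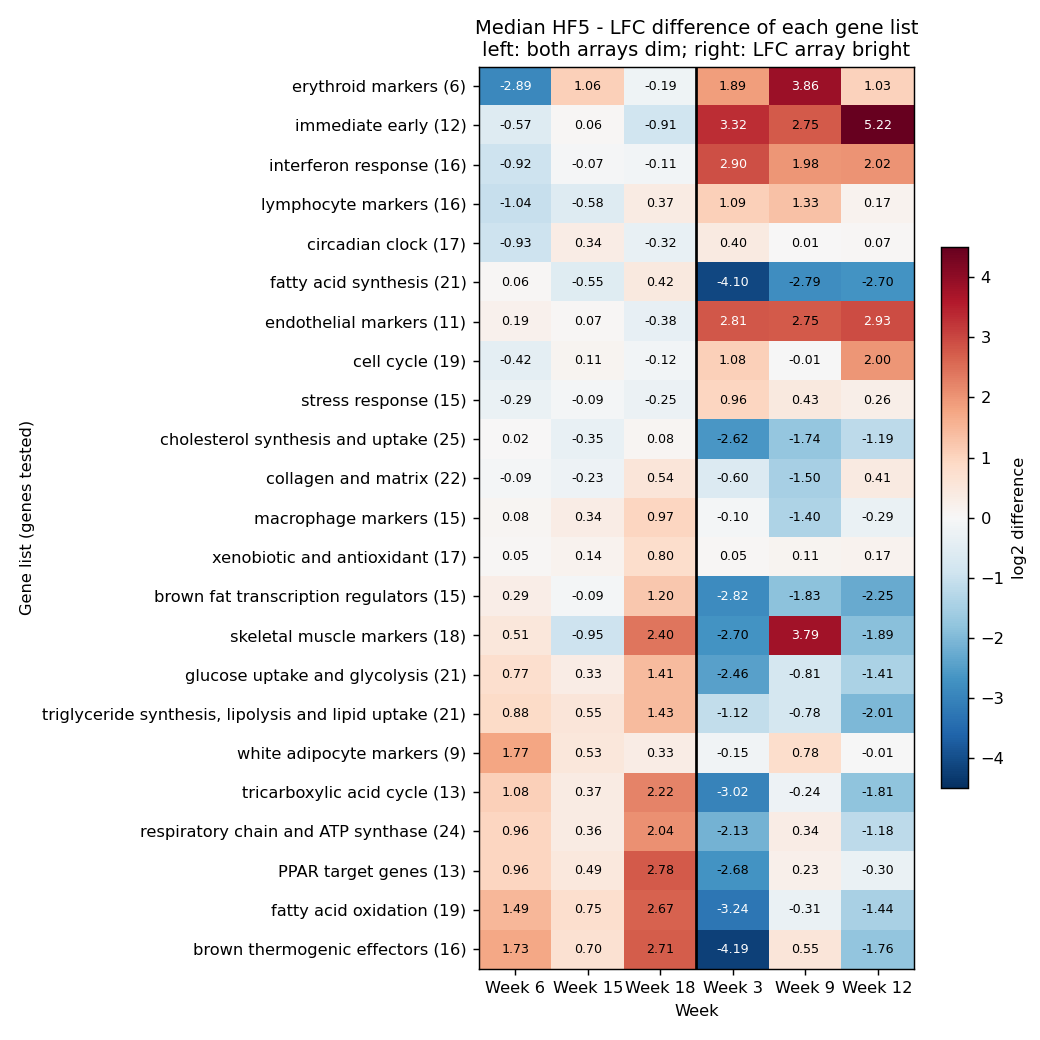
Median difference of HF5 minus LFC (log2, colour and number) of each of the 23 gene lists at each week, with the number of genes tested in brackets. The 3 columns on the left are the weeks with both arrays dim, where the thermogenic list reads 1.73, 0.70 and 2.71; on the right, where the LFC array was bright, it reads -4.19, 0.55 and -1.76.

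Several bright genes have more than 1 probe, with values of the same sign in the dim weeks and far apart in the others. The fatty acid synthase Fasn gave 0.39 (SE 0.37) by its brightest probe, which was saturated on 3 LFC arrays, and -2.44 by its other probe. In the dim weeks both gave 0.25, while in the weeks with a bright LFC array they gave 0.52 and -5.13. Glycerol-3-phosphate dehydrogenase Gpd1, which links glycolysis to triglyceride synthesis, gave 1.72 and 1.58 in the dim weeks but 1.62 and -2.97 in the others. By the first of these probes Gpd1 was higher in every HF5 array than in any LFC array, as for 25 genes (0.123%), yet its other probe was higher in HF5 at 2 of 6 weeks. The ATP synthase subunit Atp5b gave 1.11, 1.01 and 0.62 by its 3 probes in the dim weeks and 1.21, -1.98 and -2.46 in the others. Ucp1 gave 2.35 and 2.82 in the dim weeks and 0.43 and -1.32 in the others. Probes with fewer saturated LFC arrays gave the lower value in the bright weeks for Fasn, Gpd1, Atp5b and Ucp1. The differences of other genes saturated on 3 LFC arrays carry the same limit, such as 1.26 (SE 0.44) for the malate dehydrogenase Mdh2 and 1.31 (SE 0.55) for the cytochrome oxidase subunit Cox7a1.

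**Figure D4:**
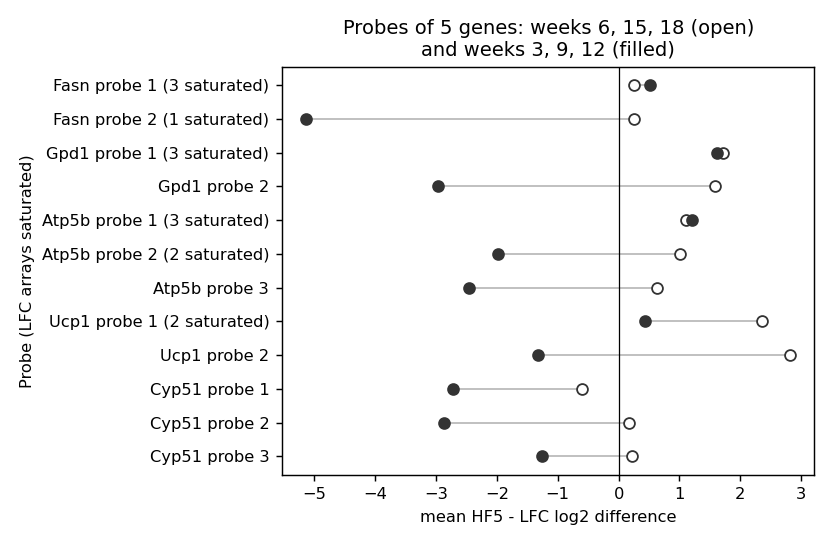
Mean difference of HF5 minus LFC (log2) for each probe of 5 genes in the weeks with both arrays dim (open circles) and in the weeks with a bright LFC array (filled circles), with the number of LFC arrays on which the probe was saturated. For Fasn the open circles coincide at 0.25 and the filled ones lie at 0.52 and -5.13.

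Endothelial, immediate early and interferon genes were higher in HF5 where the LFC array was bright. Of 11 endothelial markers 4 were higher at an unadjusted p under 0.05 (6.97% of all genes), with a median of 1.41 over all weeks, 2.93 with a bright LFC array and -0.19 in the dim weeks. Endoglin (Eng) differed by 1.56 (SE 0.47) and was higher at 6 of 6 weeks, endomucin (Emcn) by 1.72 (SE 0.58) and the VEGF receptor Flt1 by 1.70 (SE 0.64). In the dim weeks they differed by 0.39, 0.27 and 0.06. The other Eng probes gave 0.92, 1.22 and 1.14 over all weeks but were lower in HF5 at 2, 2 and 3 weeks. In the dim weeks they gave -0.54, 0.02 and -0.08, so the 6 of 6 weeks hold for the probe used only. Gpihbp1, which anchors lipoprotein lipase on the capillary wall, differed by 1.84 (SE 0.60) over all weeks and by 0.28 in the dim weeks. The immediate early list had a median of 1.70 and the interferon list of 0.98, and in the dim weeks -0.50 and -0.33. The stress protein Hspa1a shows the pattern. Its LFC levels were 4.45, 8.47, 0.83, -0.83, 8.34 and 8.77 in week order and its HF5 levels ran from 8.02 to 8.59. The probe was saturated on 3 LFC and 2 HF5 arrays. It gave -0.13 in the dim weeks, where the Hspa1a probes with no saturated LFC array gave -1.18 and -1.45. LFC was low on its 3 bright arrays. The bright HFC array of Week 3 was also the lowest of HFC, at 5.42. With brightness as a covariate the endothelial, immediate early and interferon medians over all weeks were -0.05, -0.54 and -0.25, and Hspa1a was -0.80. With the mean of the muscle list as a covariate the 3 medians were 1.45, 1.76 and 0.99. No HF5 array was bright, so the brightness fit cannot tell brightness, group and week apart. The part of brightness, handling and tissue makeup in these values was not tested.

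Markers of other cell types in the dissected tissue were compared in the same way. Skeletal muscle markers had a median difference of 0.01, and 0 of 18 had an unadjusted p under 0.05. Their mean level ran from -4.37 to 3.06 on the LFC arrays and from -2.21 to 0.74 on the HF5 arrays, and their median difference was -2.70, 3.79 and -1.89 at Weeks 3, 9 and 12 and 0.75 over the dim weeks. Of 15 macrophage markers 1, the chemokine receptor Ccr2, was lower and 0 were higher at an unadjusted p under 0.05, against 2.19% and 6.97% of all genes. The erythroid list is not read here, since the probes of the globins Hba-a1 and Hbb-b1 were saturated on all 6 LFC arrays and their scaled level there follows the brightness of the array. White adipocyte markers numbered 2 of 9 higher at that level, among them Nnat, with a difference of 1.56 (SE 0.65), 2.40 in the dim weeks and 0.72 in the others. The share of all genes higher at that level was 6.97%. The adipokine leptin (Lep) differed by -0.18 (SE 0.95), with 2.23 in the dim weeks and -2.59 in the others. Pdk4, which spares glucose by blocking pyruvate dehydrogenase, differed by -0.41 (SE 0.78), also with opposite signs in the 2 sets of weeks (1.29 and -2.12).

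To see what the high fat diet gave without Kal-1, HFC was set against the same LFC arrays and HF5 against HFC, as in the plot of the 3 comparisons. HFC against LFC shares its control arrays with HF5 against LFC, so the values are set side by side only. In HFC against LFC 0 genes passed (limma, lowest adjusted p 0.472), with 1915 reaching an unadjusted p under 0.05. In HF5 against HFC 0 passed as well (0.718), with 1121. Scd1 was 3.90 ± 0.77 in HFC (SD, n = 6), a difference of -1.93 from LFC, beside -2.07 in HF5. HF5 minus HFC was -0.14 for Scd1, with a 95% interval of -1.11 to 0.82. For Elovl6 it was -0.26 (-1.55 to 1.03), for Sqle -0.40 (-1.02 to 0.21) and for Golga7b 0.21 (-0.46 to 0.88). These intervals leave room for a 2-fold difference in Scd1, Elovl6 and Sqle in at least 1 direction. Golga7b was not well above background on any HF5 array, so its interval does not bound the difference. The median of HF5 minus HFC was -0.14 over the fatty acid synthesis list and -0.02 over the cholesterol list, beside 0.04 for all genes. In HFC against LFC, 9 of 21 fatty acid genes and 12 of 25 cholesterol genes were lower at an unadjusted p under 0.05 (2.7% of all genes), and in the dim weeks 7 and 10 of them were lower at 3 of 3 weeks (21.6%).

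**Figure D5:**
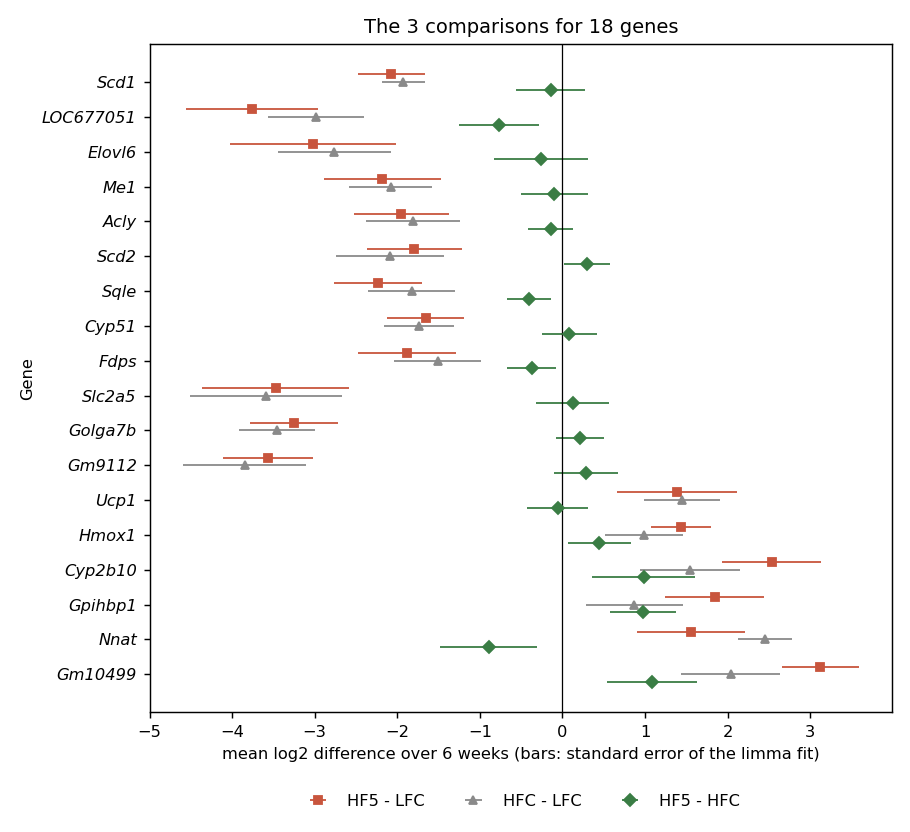
Mean log2 difference over the 6 weeks for 18 genes in HF5 minus LFC, HFC minus LFC and HF5 minus HFC, with the standard error of the limma fit as bars. HF5 minus LFC and HFC minus LFC share the LFC arrays; for Scd1 the 3 values are -2.07, -1.93 and -0.14.

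In the dim weeks HFC against LFC had 10 of 24 respiratory chain genes higher at 3 of 3 weeks with a median of 0.52, and 11 of 16 thermogenic effectors with a median of 1.16, against 15.4% of all genes. Ucp1 differed by 1.45 between HFC and LFC over all weeks and by -0.06 between HF5 and HFC, with a 95% interval of -0.90 to 0.79. Nnat, an imprinted membrane protein, differed by 2.46 between HFC and LFC and by -0.89 between HF5 and HFC (-2.24 to 0.45). Hmox1 and Cyp2b10 differed by 0.99 and 1.55 between HFC and LFC, and HF5 minus HFC was 0.45 (-0.42 to 1.31) and 0.99 (-0.43 to 2.41). Endomucin, Flt1, Gpihbp1 and Mdh2 were higher in HF5 than in HFC by 1.01, 0.96, 0.97 and 0.62. Their 95% intervals began just above 0, at 0.014, 0.068, 0.065 and 0.00042, and each had a limma adjusted p of 0.718. The HFC array of Week 3 was bright and the HF5 array dim, and the mean level of the endothelial list was 5.11 in HF5 and 2.46 in HFC at that week. At Weeks 6, 9 and 15 it was 5.27, 4.69 and 5.08 in HF5 and 5.33, 4.87 and 4.82 in HFC, and at Weeks 12 and 18 it was 5.01 and 4.60 against 4.07 and 3.92. The glycolytic aldolase Aldoc was lower in HF5 than in HFC by a difference of -1.08 (-2.01 to -0.15), with the same adjusted p, and was not well above background on any HF5 array.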

How the data were processed

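Total RNA from each tissue was Cy3-labelled and run on Agilent mouse arrays in 1 colour. Spot intensity, as deposited in the scanner files, came from Feature Extraction (9.1 per the labels, 10.5.1.1 per the file headers), whose processed signal is corrected for background and not scaled across arrays. The authors also deposited a log2 table, in which each array is set against LFC at its time point. Its HF5 column for Week 15 correlated with the scanner values at -0.0038 by probe name and at 0.995 in array order, so it served as an alternative only. There were 0 unmapped sample columns.

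The log2 processed signal minus the 75th percentile of its array was used. Spots of a probe were averaged and the brightest probe was kept for each of 29411 gene names. Of these, 20348 that at least 3 of the 12 arrays measured well above background were tested with limma 3.58.1 in R 4.3.3, two-sided, with the week as a block and Benjamini-Hochberg adjustment over all genes (threshold 0.05). Same-week deviations of HF5 and LFC correlated at -0.30 to 0.38 across genes. By accession 71.7% of the genes matched a RefSeq symbol. The number of arrays limits the precision.

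The comparison, the 23 gene lists and the naming rule were chosen with earlier results of these data known. No gene passed, so the rule gives the 10 genes per direction with the smallest p-values and the same sign at 5 or more of 6 weeks, the 3 smallest p-values of each list, and Ucp1, Scd1, Elovl6, Fasn, Me1, Sqle, Cyp51, Pdk4, Lep, Nnat, Golga7b and Cd3g. Those on which the results turn are described, and some genes that the rule gives are not reported here. The steps were tested on simulated data. The alternatives were other scalings, filters, probe choices, sets of weeks and fits.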

Additional observations from a re-analysis of the deposited data

Results flagged for a closer look

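The difference of HF5 minus LFC differed between the weeks with a bright LFC array and the weeks with both arrays dim for 5077 of 20348 genes (25% of those tested, limma on the weekly differences, adjusted p under 0.05). Of these, 2660 were larger and 2417 smaller in the bright weeks. Among 42 genes followed one by one 17 did so. The bright minus the dim weeks gave -4.04 for LOC677051, -5.27 for Elovl6, -3.22 for Me1, -2.81 for Acly, -2.84 for Scd2, -2.72 for Sqle, -2.12 for Cyp51, -3.01 for Fdps, -4.51 for Slc2a5, -4.82 for Lep and -3.41 for Pdk4. It gave 3.13 for Gpihbp1, 2.33 for Eng, 2.91 for Emcn, 3.28 for Flt1, 4.00 for Fosb and 6.83 for Hspa1a. The titles of the bright LFC arrays carry a tag (R3 or BA3) that those of their HF5 partners and of the dim LFC arrays lack. The labels do not state its meaning. At Week 9 the LFC and HF5 arrays were also scanned on different days. The brightness of the LFC array, this tag and the week cannot be told apart here.

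In 4 of 84 groups of 6 levels 1 array stood apart from the others by Dixon's test, where chance flags about 1 in 20. Hmox1 was lowest in HF5 at Week 3, at -0.036 with the next at 2.3. Nnat was also lowest in HF5 at Week 3, at -4.60 with the next at -2.65, and so was Gpihbp1, at 7.27 with the next at 7.83. Cd3g was highest in HF5 at Week 9, at -2.46 with the next at -3.91.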

How the results depend on the processing

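The count of genes passing in HF5 against LFC stayed at 0 under every alternative but these. It was 2 when all 30 arrays of Weeks 3 to 18 shared 1 spread, Golga7b and 1700018G05Rik, both lower, and 6165 in the weeks with a bright LFC array alone, an alternative chosen after seeing the data. Golga7b and 1700018G05Rik entered the test through LFC alone, the group where they were high, so their passing is a description. With normexp they differed by -0.70 and -0.99. Without any 1 week the count was 0, in HFC against LFC and in HF5 against HFC too. In HFC against LFC it was 3 with the 30 arrays. Without the replicate block, the weeks not paired, 0 genes passed in each of the 3 comparisons and 1822 in HF5 against LFC had an unadjusted p under 0.05. That count, 1863 in the report, was 1080 with normexp, 7447 without a filter on dim probes and 3386 with signals raised to the floor. It was 1096 with genes well above background on all 12 arrays, 181 with brightness as a covariate and 1058 with array weights. In the weeks with both arrays dim it was 1124, and in the weeks with a bright LFC array 8932. Leaving out 1 week gave 658 to 3041, the lowest without Week 9 and the highest without Week 6. The alternative with the scan day as a block is the same fit as the one without Week 9. The methods' t-test, unpaired, gave 1586 at an unadjusted p under 0.05 and 0 after adjustment. The median of all genes was 0.07, against -0.10 with quantile normalization, 0.21 with normexp and 0.26 with the floor, and the unadjusted calls then split as 804 higher and 1125 lower with quantile normalization and as 792 and 288 with normexp, against 1418 and 445.

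Of the 42 genes followed one by one 33 kept their sign under every alternative. With quantile normalization Fasn was -0.38 and Cd3g -0.67. With the mean of all probes Fasn was -1.03 and Atp5b -0.080. With brightness as a covariate Fasn was -0.23, Hmgcs1 0.034, Flt1 -0.12, Fosb -0.22, Hspa1a -0.80, Lep 2.11, Pdk4 0.48 and Cd3g -0.52. In the dim weeks Hmgcs1 was 0.49, Hspa1a -0.13, Lep 2.23, Pdk4 1.29 and Cd3g -0.31. With the scan day as a block Lep was 0.33 and Cd3g -0.24, and with array weights Lep was 0.53, Pdk4 0.081 and Cd3g -0.087. Without 1 week Hmgcs1 ran from -0.59 to 0.12, Lep from -0.91 to 0.52, Pdk4 from -1.10 to 0.15 and Cd3g from -0.24 to 0.21. The cause was not tested.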
